A study of Homo sapiens with 12 samples.

Results

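Zinc homeostasis genes were followed through 2 treatments directed at RNA polymerase III (Pol III) in HEK293T cells. They were 5 importers of the SLC39 family (SLC39A10, SLC39A6, SLC39A14, SLC39A1 and SLC39A7), 2 exporters of the SLC30 family (SLC30A1 and SLC30A9), the zinc-sensing transcription factor MTF1, and the metallothioneins MT1X and MT2A. These 10 genes, of 34318 with a matched transcript, were chosen by symbol with the summed reads and TPM of the siRNA comparison in view, because SLC39A10 was low there. The siRNA comparison thus helped choose them, so their values in it are given as a description without a test. Their ML60218 values were tested.

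Zinc enters the cytosol through SLC39 (ZIP) proteins, at the cell surface or from intracellular stores, and leaves it through SLC30 (ZnT) proteins, outward or into organelles. Metallothioneins are small cysteine-rich proteins that bind zinc and copper and buffer them. When free zinc rises, MTF1 binds metal response elements in the promoters of metallothionein genes and of SLC30A1 and activates them.

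HEK293T is an established human embryonic kidney line that carries the SV40 large T antigen, and the labels give it as the cell line of every library. One experiment used lipid transfection of an siRNA to POLR3A, the gene of the largest subunit of Pol III (siPOLR3A), or of a control siRNA (siControl), with harvest after 2 days. In the other, cells were kept for 4 hours in 0.1% DMSO, the vehicle, or in 25 µM ML60218, an inhibitor of Pol III. Each of the 4 groups had 3 libraries of mRNA, and nothing in the labels said that these came from separate cultures, so p-values measure only the spread between these libraries. The siRNA sequences and the number of siRNAs used are not given in the sources used here.

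Libraries held between 37008325 and 49479476 estimated reads, and mitochondrial genes took between 4.91% and 8.87% of them. POLR3A had CPM values (reads scaled to library size) of 92.2, 93.5 and 86.8 in siControl and of 19.3, 19.0 and 14.6 in siPOLR3A, a log2 fold change of −2.36. It was also lower under ML60218, at a mean of 86.5 CPM against 113 CPM in DMSO (log2 fold change −0.38, edgeR adjusted p = 0.000229). The size of that decrease depended on the processing. It was −0.17 with unmatched transcripts listed between those of the gene included (edgeR adjusted p = 0.0024). In summed TPM it was −0.24 (limma adjusted p = 0.0498). Of the markers listed for the line, VIM, NEFL, NEFM and KRT18 had at least 982 reads in every library. KRT8, CDH1, EPCAM and the kidney factor PAX2 had at least 54 reads in every library, and the kidney factor PAX8 had at most 4. The sum of these 9 markers lay between 1077 and 1112 CPM in siControl and between 657 and 675 CPM in siPOLR3A, and between 877 and 899 CPM in DMSO and between 933 and 952 CPM in ML60218. After siRNA, VIM, NEFL and NEFM fell and EPCAM, CDH1 and KRT18 rose (edgeR adjusted p from 4.15e-11 to 0.012). Under ML60218, 3 markers (KRT8, NEFL and NEFM) rose and 0 fell. Over all genes tested, 27.4% rose and 29.2% fell after siRNA, and 18.1% rose and 20.9% fell under ML60218. The part of the markers in the results was not tested. Of the blood markers, PTPRC and HBB were at 0 reads in all 12 libraries, and CD3E had at most 1. The endothelium and hepatocyte markers (PECAM1, CDH5, VWF, ALB, APOA1 and TTR) had at most 10 reads per library. Of the fibroblast markers, COL1A1 had at least 835 reads in every library, DCN at most 32 and COL1A2 at most 5. In bulk RNA, fewer cells of a kind and less RNA per cell cannot be told apart.

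Promoter windows of the 3 members best known as MTF1 targets are printed because both metallothioneins fell under ML60218. SLC30A1 did not pass the test there. Each window runs from 250 bases before to 50 bases after the RefSeq start of the gene (assembly GRCh38.p14), 5′ to 3′ along the gene. Capitals mark metal response element cores, searched as TGCACNC and TGCGCNC on both strands, so that a core on the opposite strand reads GNGTGCA or GNGCGCA. MT2A is at chr16:56608334-56608633, plus strand. MT1X is at chr16:56682220-56682519, plus strand. SLC30A1 is at chr1:211579112-211579411, minus strand.
MT2A: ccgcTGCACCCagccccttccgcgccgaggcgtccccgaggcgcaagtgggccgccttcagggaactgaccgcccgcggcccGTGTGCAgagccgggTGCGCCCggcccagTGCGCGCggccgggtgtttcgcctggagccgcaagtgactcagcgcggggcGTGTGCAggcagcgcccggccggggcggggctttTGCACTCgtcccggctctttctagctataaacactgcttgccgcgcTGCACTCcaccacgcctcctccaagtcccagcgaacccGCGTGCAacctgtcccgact
MT1X: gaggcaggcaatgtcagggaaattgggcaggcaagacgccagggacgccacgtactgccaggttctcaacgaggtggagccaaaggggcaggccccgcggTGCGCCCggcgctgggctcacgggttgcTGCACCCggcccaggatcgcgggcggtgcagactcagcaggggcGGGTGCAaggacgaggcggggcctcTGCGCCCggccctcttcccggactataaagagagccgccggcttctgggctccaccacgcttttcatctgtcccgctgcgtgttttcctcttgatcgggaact
SLC30A1: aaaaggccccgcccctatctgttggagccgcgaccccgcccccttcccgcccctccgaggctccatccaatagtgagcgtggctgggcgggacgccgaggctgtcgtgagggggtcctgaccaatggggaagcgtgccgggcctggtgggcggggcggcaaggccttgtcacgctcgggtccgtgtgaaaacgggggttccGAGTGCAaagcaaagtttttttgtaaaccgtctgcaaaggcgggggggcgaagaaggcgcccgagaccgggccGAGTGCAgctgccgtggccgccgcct

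The MT2A window held 8 cores, 5 on the strand of the gene and 3 on the other. The MT1X window held 4, of which 3 were on the strand of the gene. Both cores of SLC30A1 were on the opposite strand. Of 35116 promoter windows scanned, 29.6% held at least 1 core, 8.60% at least 2 and 0.601% at least 4, and as many as in MT2A stood in 0.0199%. SLC39A6 had 1 core, and 1 of the 2 annotated starts of SLC39A10 and of SLC39A1 had 1 each. None was found in the windows of SLC39A7, SLC30A9 and MTF1, which says only that these letters are not in those windows. In all, 11 windows matched 9 members, and SLC39A14 had no entry. A match is a description of the letters and was not measured as a site.

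The hexamers GAGGGA and GACGTA, which an earlier analysis of these data had counted in 3′ untranslated regions (UTRs), were located in the leading transcript of each member (GENCODE release 29). They are shown because SLC39A10 and SLC39A1 had the largest decreases after siRNA among the steadily measured members, and only the latter had GAGGGA in its 3′ UTR. Capitals mark the hexamer, searched on the strand of the transcript.
SLC39A10, coding sequence: ttggcagttcaaGAGGGAaagcattttcac
SLC39A1, 3′ UTR, first: tctgactaatgaGAGGGAagtgggcagaca
SLC39A1, 3′ UTR, second: gttatttttgggGAGGGAgggctgtgcata
MTF1, 3′ UTR: cctcacctttcaGACGTAttttctttattc

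SLC39A10 had 0 copies of either hexamer in a 3′ UTR of 2661 bases and 1 GAGGGA in its coding sequence. Copies of GAGGGA in the 3′ UTR numbered 2 in SLC39A1, 1 in SLC39A14, 1 in SLC39A7, 4 in SLC30A1 and 3 in MTF1. SLC39A6, SLC30A9, MT1X and MT2A had 0 there. Over the 14074 genes tested after siRNA that had an annotated 3′ UTR, 33.0% had GAGGGA in it. The share was 53.3% for those with a UTR of 2000 to 4000 bases. GACGTA stood in 3.65% of these genes, and in 6.59% of those with a UTR of 2000 to 4000 bases. MTF1, with a longer 3′ UTR of 5569 bases, was the member that held it. Of the members with GAGGGA there, SLC39A1, SLC39A14, SLC30A1 and the unsteady SLC39A7 were below 0 after siRNA and MTF1 was above. Of those without it, SLC39A10 and SLC30A9 were below 0, and SLC39A6, MT1X and MT2A were above. The part of the hexamer in these changes was not tested. Release 29 may differ from the transcripts that were quantified, as the leading transcript of SLC39A10 has 5322 bases in it and 5222 in the deposited table. For MT2A the mismatch was larger, with 786 bases in release 29 and 401 as deposited.

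Levels of different genes can be set side by side in TPM, which is scaled for transcript length. In DMSO, SLC39A6, an importer of the cell surface, was the most abundant member at 102 ± 5.21 TPM (SD, n = 3). It was followed by SLC39A1, a broadly expressed plasma membrane importer (86.8 ± 4.28 TPM), and SLC30A9, which exports zinc from mitochondria (72.2 TPM). MT1X (51.8 TPM) and SLC39A10 (50.9 TPM) had overlapping ranges. Below them came SLC39A14 at 41.4, MT2A at 26.7, SLC30A1 at 17.8, MTF1 at 5.74 and SLC39A7 at 3.15 TPM. In that lower part of the order the ranges of neighbours did not overlap. SLC39A7 was unsteady, running from 0 to 5.13 TPM across the DMSO libraries, and had 1 matched transcript. How the quantification split its reads was not tested, so its last place is not read as low expression.

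The order differed between groups. In siControl, SLC39A1 and SLC30A9 overlapped at 72.5 and 72.4 TPM, as did MT1X and SLC39A14 at 32.9 and 32.8 TPM, and MTF1 overlapped SLC39A7. SLC39A10 held place 4 there at 61.1 TPM. In siPOLR3A it held place 6 at 26.3 TPM, in a range shared with MT2A at 32.1 TPM, which in turn overlapped SLC39A1 at 33.3 TPM. MT1X held place 3 in siPOLR3A at 48.4 TPM. In ML60218, MT1X held place 6 at 35.6 TPM, and MT2A at 20.0 TPM overlapped SLC30A1 at 18.5 TPM.

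After POLR3A siRNA, 3 of the 5 importers stood about 2-fold to 3-fold lower than in siControl and SLC39A6 stood slightly higher. Both exporters were slightly lower, and MTF1 and MT1X were higher. Over all 10 members the groups did not overlap in 8. The share without overlap was 63.4% of the 15404 genes tested, and 56.6% of those genes were called at an edgeR adjusted p under 0.05, so nothing is read from the count. A log2 fold change of −0.5 or below was found in 4 members, SLC39A7 with its unsteady values among them, and in 10.1% of all genes tested. The median log2 fold change was −0.25 over the members and 0.01 over all genes tested. As this comparison helped choose the members, nothing is read from this median or from the count at −0.5 or below.

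SLC39A10 (ENSG00000196950, GRCh38 chromosome 2, 195575977 to 195737702) encodes a plasma membrane zinc importer that forms a complex with SLC39A6. It had 221, 221 and 228 CPM in siControl and 72.4, 75.1 and 76.0 CPM in siPOLR3A. The 3 siPOLR3A libraries lay close together and far below all controls. The log2 fold change was −1.58 (SE 0.028), or 0.334 of the control level. A log2 fold change of −1 or below was found in 2.23% of all genes tested.

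SLC39A1 (ENSG00000143570, chromosome 1, 153959099 to 153968184) had 96.1, 102 and 102 CPM in siControl and 45.8, 45.7 and 46.3 CPM in siPOLR3A. Its log2 fold change was −1.12 (SE 0.032), and no siPOLR3A library came near a control. SLC39A14 (ENSG00000104635, chromosome 8, 22367249 to 22434129), an importer of zinc that also carries iron and manganese, had 109, 110 and 107 CPM and then 56.2, 56.4 and 56.3 CPM. Its log2 fold change was −0.95 (SE 0.027), again without overlap.

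SLC39A6 (ENSG00000141424, chromosome 18, 36108532 to 36129385), the partner of SLC39A10, had 311, 319 and 322 CPM in siControl and 355, 365 and 357 CPM in siPOLR3A. All siPOLR3A libraries were above all controls, at a log2 fold change of 0.18 (SE 0.023). The partners thus stood on opposite sides of their controls. SLC39A7 (ENSG00000112473, chromosome 6, 33200445 to 33204439) releases zinc from the endoplasmic reticulum. Its values were 4.85, 16.8 and 0 CPM in siControl and 2.07, 0 and 0 CPM in siPOLR3A, and its estimated counts ran from 0 to 605 reads. Replicates of 1 group differed by more than the groups did, so that its log2 fold change of −3.33 (SE 2.14) carries no direction.

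SLC30A1 (ENSG00000170385, chromosome 1, 211571568 to 211578742), the zinc exporter of the plasma membrane, had 71.5, 73.4 and 71.9 CPM in siControl and 60.5, 59.2 and 55.8 CPM in siPOLR3A. The groups did not overlap, and the log2 fold change was −0.30 (SE 0.035). SLC30A9 (ENSG00000014824, chromosome 4, 41990472 to 42090457) had 212, 215 and 217 CPM and then 184, 193 and 188 CPM. Its difference was smaller, at −0.19 (SE 0.025), and also free of overlap.

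MTF1 (ENSG00000188786, chromosome 1, 37809567 to 37859620) had 39.6, 39.2 and 38.6 CPM in siControl and 63.9, 68.3 and 64.9 CPM in siPOLR3A. It was the member with the largest increase in this experiment, at 0.75 (SE 0.035), with all treated libraries above all controls. A log2 fold change of 0.5 or more was found in 9.96% of all genes tested. MT1X (ENSG00000187193, chromosome 16, 56682424 to 56684196) had 5.27, 5.62 and 6.09 CPM and then 8.18, 8.57 and 7.89 CPM. Its log2 fold change of 0.54 (SE 0.087) rested on between 176 and 317 reads per library. MT2A (ENSG00000125148, chromosome 16, 56608199 to 56609497) had 4.76, 4.56 and 4.98 CPM and then 5.61, 4.70 and 5.39 CPM, so the groups overlapped, and its log2 fold change was 0.14 (SE 0.10). Metallothionein genes are near-identical copies, and reads shared between them could have been split by the quantification.

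**Figure D1:**
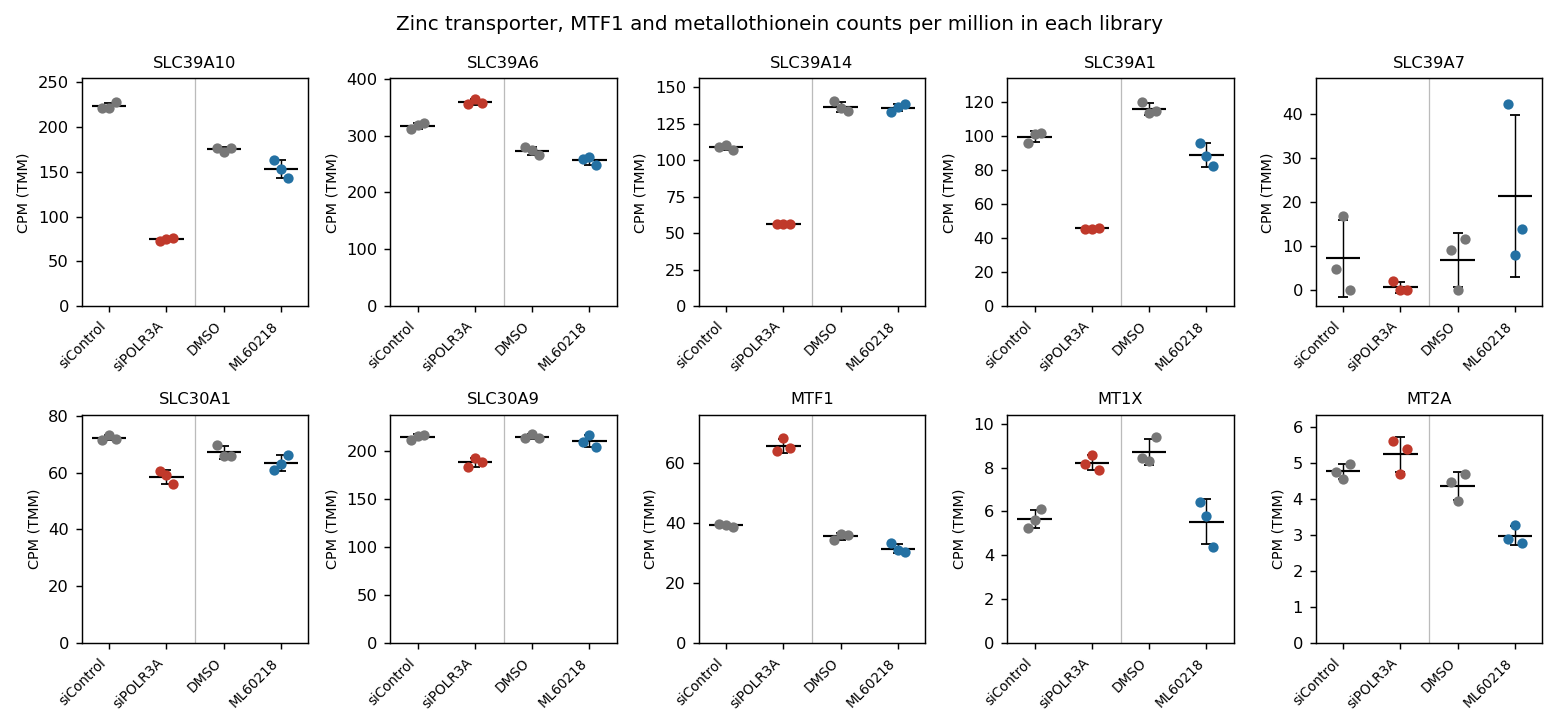
CPM (TMM-scaled, linear axis) of the 10 members in each of the 12 libraries (points), by group, with the mean and SD of 3 libraries as bars. SLC39A10, SLC39A14 and SLC39A1 stand lower in siPOLR3A than in siControl, MTF1 and MT1X stand higher, and both metallothioneins stand lower in ML60218 than in DMSO; SLC39A7 scatters from 0 to 42.2.

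Under ML60218 for 4 hours, both metallothioneins fell, as did the importer SLC39A1. SLC39A10 and MTF1 fell by small amounts, and some alternative settings lost their calls. Of the 10 members, 5 fell, 0 rose and 5 did not pass the edgeR quasi-likelihood test with Benjamini-Hochberg adjustment. Over the 15461 genes tested, 39% were called, 18.1% higher and 20.9% lower. In 6 members the groups did not overlap, against 51.9% of all genes. The median log2 fold change was −0.14 over the members and 0.01 over all genes tested.

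MT1X had 8.46, 8.30 and 9.38 CPM in DMSO and 6.44, 5.77 and 4.40 CPM in ML60218. All treated libraries were below all controls. MT1X fell by 0.66 on the log2 scale (SE 0.13, edgeR adjusted p = 0.0041), from between 199 and 399 reads per library. MT2A had 4.47, 3.94 and 4.70 CPM and then 2.88, 3.29 and 2.79 CPM. It fell by 0.55 (SE 0.12, edgeR adjusted p = 0.00616), again without overlap. A log2 fold change of −0.5 or below was found in 2.88% of all genes tested. Each of the 15 alternatives kept both calls, with adjusted p from 0.000183 to 0.0204 for MT1X and from 0.00373 to 0.0318 for MT2A. Both transcripts are short, and 973 other genes whose leading transcript is under 600 bases had a median log2 fold change of 0.04, with 143 called higher and 162 lower. The part of transcript length in the result was not tested.

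SLC39A1 had 120, 114 and 115 CPM in DMSO and 96.4, 88.4 and 82.6 CPM in ML60218, without overlap. SLC39A1 fell by 0.39 (SE 0.054, edgeR adjusted p = 0.000804) and kept its call under all 15 alternatives. SLC39A10 had 177, 172 and 176 CPM and then 164, 153 and 144 CPM. It fell by 0.19 (SE 0.045, edgeR adjusted p = 0.00817). With an offset for the length of its transcripts the value was −0.04 (adjusted p = 0.359), and in summed TPM, tested with limma, it was 0.10 (adjusted p = 0.207). The median of all genes was higher by 0.13 in summed TPM than in the edgeR fit, and by 0.00187 with the offset. The call for SLC39A10 was thus lost under both settings that take transcript length into account.

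The other importers did not pass the test. SLC39A6 had 280, 275 and 266 CPM in DMSO and 260, 262 and 248 CPM in ML60218, a log2 fold change of −0.09 (SE 0.034, edgeR adjusted p = 0.0515), and it passed without ML60218 replicate 1 (adjusted p = 0.0485), with neighbouring transcripts included (0.0419) and with no filter on low counts (0.0383). SLC39A14 had 140, 136 and 134 CPM and then 133, 136 and 138 CPM. Its groups overlapped and its log2 fold change was −0.01 (SE 0.033, edgeR adjusted p = 0.92). SLC39A7 again varied within groups, with 9.15, 0 and 11.5 CPM in DMSO and 42.2, 8.04 and 13.8 CPM in ML60218 (log2 fold change 1.64, SE 1.35, edgeR adjusted p = 0.414). It was the member at 0.5 or above, as were 7.8% of all genes tested.

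Neither exporter passed the test. SLC30A1 had 69.6, 65.8 and 65.8 CPM in DMSO and 60.8, 62.9 and 66.2 CPM in ML60218 (log2 fold change −0.08, SE 0.045, edgeR adjusted p = 0.172). SLC30A9 had 213, 218 and 213 CPM and then 209, 217 and 205 CPM (−0.03, SE 0.032, edgeR adjusted p = 0.455). In both genes the groups overlapped.

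MTF1 had 34.2, 36.3 and 36.0 CPM in DMSO and 33.1, 30.9 and 30.2 CPM in ML60218. It fell by 0.18 (SE 0.051, edgeR adjusted p = 0.0203). This call was lost without DMSO replicate 2 (adjusted p = 0.0891), DMSO replicate 3 (0.0728), ML60218 replicate 2 (0.0631) or ML60218 replicate 3 (0.0506). It was also lost with upper quartile scaling (−0.14, adjusted p = 0.0575), with total counts (−0.11, 0.102) and in summed TPM (−0.05, 0.718), and its lowest adjusted p over the alternatives was 0.00538. ML60218 replicate 1 was the treated library nearest to DMSO for SLC39A10, SLC39A1, MTF1 and MT1X.

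**Figure D2:**
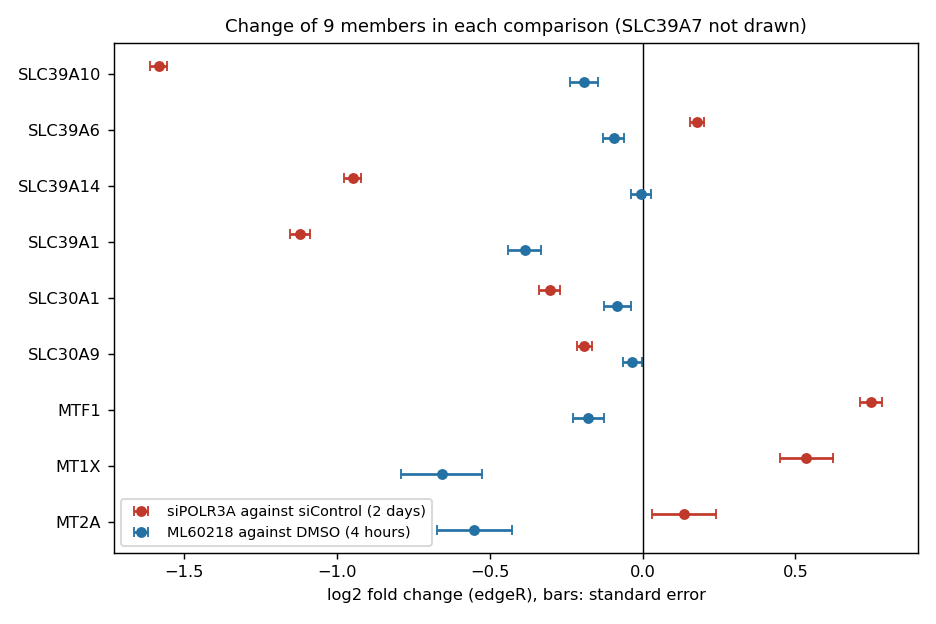
Log2 fold change (edgeR, horizontal axis) of 9 members in siPOLR3A against siControl (red) and in ML60218 against DMSO (blue), with the standard error as bars; SLC39A7 is not drawn because its standard errors were 2.14 and 1.35. SLC39A10 lies at −1.58 and −0.19, MTF1 at 0.75 and −0.18, and MT1X at 0.54 and −0.66.

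Set side by side, the comparisons have separate controls and different durations, and the difference between their effects was not tested. In CPM, SLC39A1 and SLC39A10 were lower than their controls in both, while in TPM SLC39A10 averaged 54.6 in ML60218 and 50.9 in DMSO. MTF1 and MT1X lay on opposite sides of 0, at 0.75 and 0.54 after siRNA and at −0.18 and −0.66 under ML60218. SLC39A14 was at −0.95 after siRNA and at −0.01 under ML60218.

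Transcripts of SLC39A10 did not move alike. The coding transcript ENST00000359634, with 10 exons from 195657128 to 195737702 on chromosome 2, had 54.0, 50.7 and 52.7 TPM in siControl and 16.5, 17.2 and 17.9 TPM in siPOLR3A. In DMSO it had 41.8, 38.0 and 39.2 TPM and in ML60218 38.1, 38.8 and 37.9 TPM, so the latter pair of groups overlapped. A transcript with an annotated fate of nonsense-mediated decay, ENST00000430412, averaged 4.20 TPM in siControl and 1.79 TPM in siPOLR3A.

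The remaining transcript shown, ENST00000464301, is a processed transcript of 571 bases in 2 exons, from 195657235 to 195658587. It lies near the 5′ end of the coding transcript, which starts at 195657128. It shares 47 bases with the exons of the coding transcript, and the rest lies in the first intron of the latter. It had 3.17, 3.60 and 4.26 TPM in siControl and 5.67, 7.22 and 7.90 TPM in siPOLR3A. In DMSO it had 5.24, 6.26 and 5.63 TPM and in ML60218 7.39, 11.6 and 14.2 TPM. In each experiment all treated libraries were above all controls, opposite to the coding transcript after siRNA. Its share of the summed TPM of SLC39A10 was 6.02% in siControl and 26.4% in siPOLR3A, and 11.2% in DMSO and 20.2% in ML60218.

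Few reads lay behind this short transcript. Estimated counts were 24, 31 and 37 in siControl and 50, 61 and 63 in siPOLR3A, and 46, 61 and 56 in DMSO and 58, 84.8 and 123 in ML60218. By counts it made up 0.958% of SLC39A10 over all libraries, against 14.2% by TPM, since TPM weights short transcripts upward. An exact permutation test of 3 against 3 libraries cannot give a two-sided p below 0.1, and none was run. The assignment of reads between these transcripts is an estimate of the quantification.

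**Figure D3:**
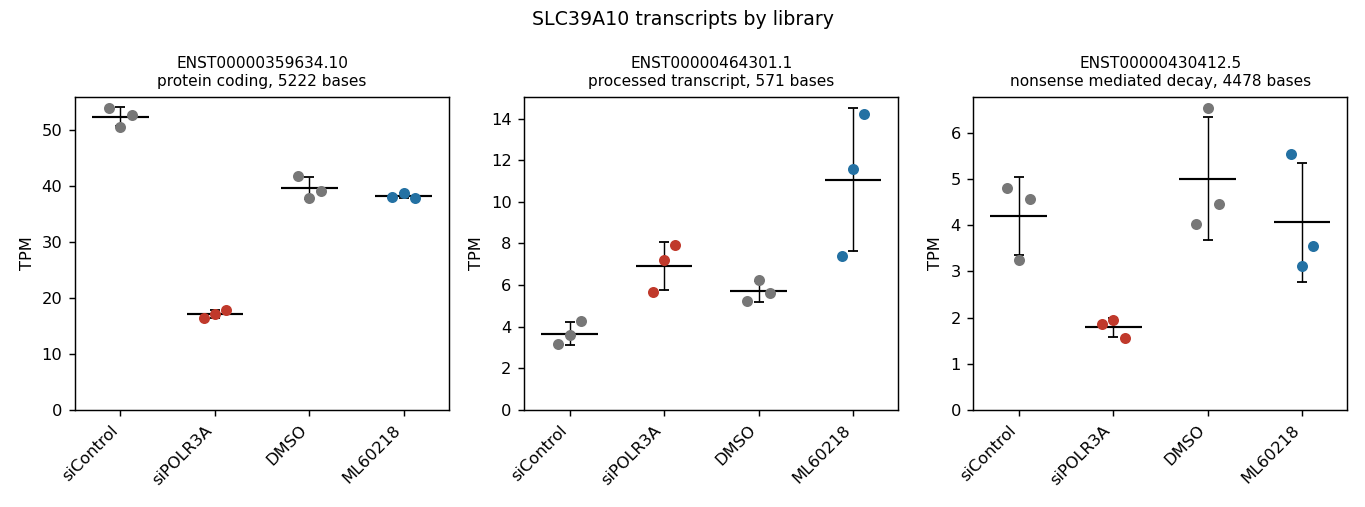
TPM (linear axes of different height) of the coding, the short processed and the nonsense-mediated decay transcript of SLC39A10 in each library (points), by group, with the mean and SD of 3 libraries as bars. The coding transcript stands at 16.5 to 17.9 in siPOLR3A against 50.7 to 54.0 in siControl, while the processed transcript of 571 bases is highest in ML60218, at up to 14.2.

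In 9 of the 10 members 1 transcript held most of the summed TPM, from 76.5% in SLC39A10 to 100% in SLC30A1 and SLC39A7, which had 1 matched transcript each. SLC30A9 was the exception. Its coding transcript ENST00000264451 held 46.4% of its TPM and the nonsense-mediated decay transcript ENST00000513699 held 37.2%. By estimated counts the coding transcript held 74.1%.

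The wider families were read from lists chosen with earlier results of these data known. Of 9 other SLC39 importers 6 were tested after siRNA, and 3 rose, 2 fell and 1 did not pass. Over all genes tested after siRNA, 27.4% rose and 29.2% fell. SLC39A11, an importer found at the Golgi, fell by 0.54 (SE 0.062, edgeR adjusted p = 4.69e-06). SLC39A8, which also carries manganese and cadmium, fell by 0.38 (SE 0.041, edgeR adjusted p = 3.81e-06). SLC39A13, an importer of secretory vesicles, rose by 0.28 (SE 0.058, edgeR adjusted p = 0.000774). SLC39A3 rose by 0.21 (edgeR adjusted p = 0.0153), a call lost without siControl replicate 1 (adjusted p = 0.0561) or siPOLR3A replicate 2 (0.0677). Under ML60218, 0 of 6 rose, 1 fell and 5 did not pass, where 18.1% of all genes rose and 20.9% fell. That 1 was SLC39A13 at −0.20 (edgeR adjusted p = 0.0252), lost when any library but ML60218 replicate 1 was left out (adjusted p from 0.0548 to 0.085). The list medians were 0.21 after siRNA and −0.07 under ML60218.

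Of 8 other SLC30 exporters 7 were tested, and after siRNA 2 rose, 2 fell and 3 did not pass, where 56.6% of all genes tested were called. SLC30A7, which loads zinc into the Golgi, rose by 0.52 (SE 0.027, edgeR adjusted p = 9.14e-10), and SLC30A3, the exporter of synaptic vesicles, rose by 0.35 (SE 0.065, edgeR adjusted p = 0.000366). SLC30A6 and SLC30A5, exporters of the early secretory pathway that load zinc into it, fell by 0.43 and 0.21 (edgeR adjusted p = 1.98e-08 and 1.06e-05). Under ML60218, 3 rose, 0 fell and 4 did not pass, beside 18.1% of all genes higher and 20.9% lower. SLC30A4 rose by 0.36 (SE 0.069, edgeR adjusted p = 0.00313) and SLC30A6 by 0.18 (SE 0.040, edgeR adjusted p = 0.00737). SLC30A2 rose by 1.13 (edgeR adjusted p = 0.0264) on 14 to 44 reads, and this call was lost without DMSO replicate 1, 2 or 3 or ML60218 replicate 2 or 3 (adjusted p from 0.0677 to 0.115). The list medians were −0.09 and 0.14.

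Of 9 other metallothioneins 1, MT1F, had enough reads to be tested. It did not pass after siRNA (log2 fold change 0.03, edgeR adjusted p = 0.934) or under ML60218 (−0.28, SE 0.21, edgeR adjusted p = 0.337). Its counts lay between 27 and 48 reads per library across both experiments. The remaining 8 did not pass the filter on low counts.

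**Figure D4:**
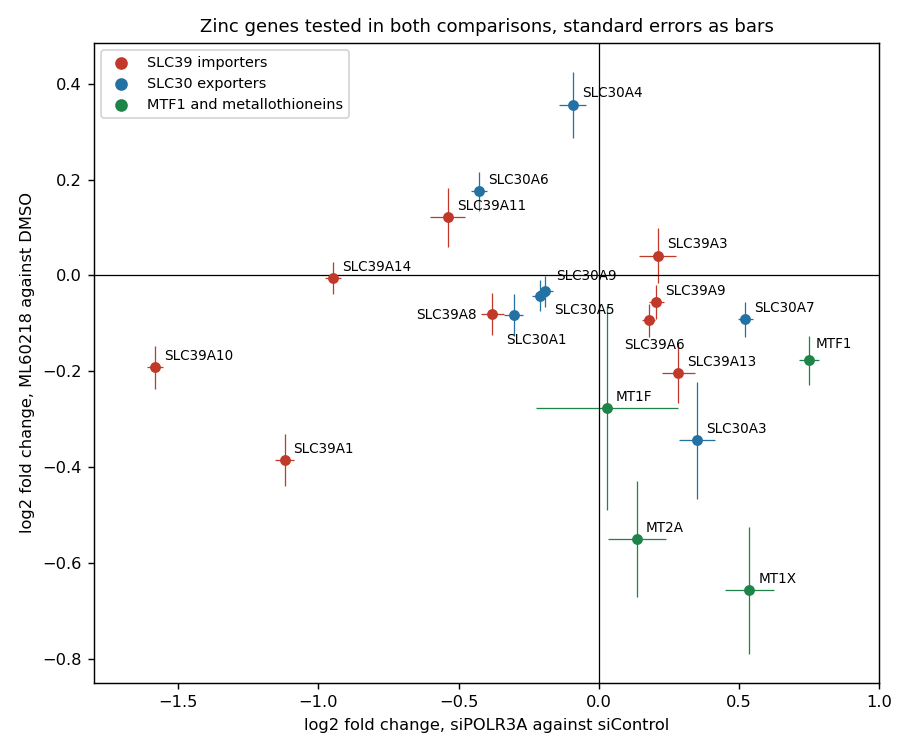
Log2 fold change in ML60218 against DMSO (vertical axis) and in siPOLR3A against siControl (horizontal axis) for 20 zinc genes tested in both (importers red, exporters blue, MTF1 and metallothioneins green), with standard errors as bars; 4 genes with a standard error above 0.3 (SLC39A7, SLC39A4, SLC30A2 and SLC30A10) are not drawn. SLC39A10 and SLC39A1 lie lowest on the horizontal axis, and MT1X and MT2A lie lowest on the vertical axis, at −0.66 and −0.55.

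Other proteins that move or sense zinc were measured as well. Of 5 tested after siRNA, 0 rose, 3 fell and 2 did not pass, beside 27.4% of all genes higher and 29.2% lower. TRPM7, a channel kinase that passes zinc and magnesium, fell by 0.67 (SE 0.028, edgeR adjusted p = 1.44e-10). ZNG1B and ZNG1A, zinc chaperones with near-identical copies, fell by 0.37 and 0.18 (edgeR adjusted p = 2.98e-06 and 0.000265). The ZNG1A call was lost in summed TPM (−0.10, limma adjusted p = 0.112). Under ML60218, TRPM7 rose by 0.15 (edgeR adjusted p = 0.0123), 0 of 6 fell and 5 did not pass (all genes: 18.1% higher, 20.9% lower). The TRPM7 call was lost without DMSO replicate 2 (adjusted p = 0.0509) or 3 (0.0638).

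A further list held proteins tied to SLC39A10 in the literature on cell adhesion and on its signalling. After siRNA, 1 of 5 rose, 3 fell and 1 did not pass, against 27.4% higher and 29.2% lower over all genes tested. NCAM1, an adhesion molecule that binds the complex of SLC39A6 and SLC39A10, fell by 1.14 (SE 0.043, edgeR adjusted p = 1.7e-10), and CDH1, the epithelial cadherin, rose by 0.47 (SE 0.095, edgeR adjusted p = 0.00168). CSNK2A2 and CSNK2A1, the catalytic subunits of casein kinase 2, fell by 0.43 and 0.26 (edgeR adjusted p = 8.25e-09 and 2.4e-07). Under ML60218, CSNK2A1 fell by 0.16 (SE 0.032, edgeR adjusted p = 0.00344), 0 of 5 rose and 4 did not pass, where 39% of all genes were called. The CSNK2A1 call was lost with the isoform length offset (−0.10, edgeR adjusted p = 0.114) and its value was 0.04 in summed TPM (limma adjusted p = 0.544).

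Genes with the pattern most like SLC39A10 over the 12 libraries, by Pearson correlation of log2 CPM among 10293 protein-coding genes, were FBH1 (0.996), MGAT5 (0.994), KIAA1191 (0.994), GLDC (0.994) and ITGB1 (0.993). Among members, SLC39A1 was at 0.93 and SLC39A6 at −0.58 on the same measure. For MT2A the closest were KDM2A (0.970), FKBP4 (0.965), SCOC (0.951), FAM222B (0.948) and REPIN1 (0.948). The 12 points share 4 groups of 3, so these values mainly describe group means.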

How the data were processed

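Stranded mRNA libraries were sequenced in 12 samples, grouped by the titles. The deposited table holds, per the file headers, an estimated count and a TPM value for each of 194142 transcripts in each library. The quantification program's version and settings and the transcript release are not given in the sources used here. The submitters' processing notes name bcl2fastq 2.20, Trim Galore, DESeq2 and hg38, with no role stated.

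Transcripts were assigned to genes through GENCODE release 29, which matched 158359 of them (81.6%), with 91.0% to 91.6% of reads per library. The rest stayed out of totals and tests. The design had assumed counts per gene, so estimated transcript counts were added up by gene, then rounded. The 6 libraries of a comparison made 1 fit in edgeR 4.0.16 (R 4.3.3) with minimum count 10 and minimum total 15 in filterByExpr, TMM scaling and the two-sided quasi-likelihood test. Called means a Benjamini-Hochberg adjusted p under 0.05 over all genes tested. The SE is the fold change divided by the square root of F. The script was tested on simulated data. limma 3.58.1 and DESeq2 1.42.0 served in alternatives.

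The members and lists were chosen with earlier results of these data known. All members are named, and from each list at most the 4 largest changes among called genes of a comparison. The 5 genes most like SLC39A10 or MT2A by Pearson correlation came from protein-coding genes whose mean log2 CPM reached 3. Python 3.11.15 and pandas 2.3.3 read the files.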

Additional observations from a re-analysis of the deposited data

How the results depend on the processing

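In the ML60218 comparison 5 members were called, and 3 in summed TPM tested with limma on log2(TPM + 0.1); the other settings gave 4 to 6, and leaving out 1 library gave 4 to 6. In summed TPM the values of SLC39A10 (0.0991, adjusted p = 0.207), CSNK2A1 (0.0428, adjusted p = 0.544) and SLC39A13 (0.0028, adjusted p = 0.983) were above 0. On that scale the median of all genes was higher by 0.133, and 82.5% of called genes were higher, against 46.4% in edgeR with TMM. Upper quartile scaling gave 58.6% and unscaled totals 67.0%. In the siRNA comparison it was 48.4%, and 58.7% and 57.0% with these scalings. The cause was not tested.

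SLC39A10 after siRNA was at −1.24 with the isoform length offset and −1.22 in summed TPM, and from −1.60 to −1.56 when 1 library was left out. SLC39A7 ran from −11.02 to −1.75.

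With the replicate number as a block, 5 members were called under ML60218, 5393 genes against 6029 without it, and 8493 against 8722 in the siRNA comparison. Deviations of same-numbered libraries had correlations from −0.0741 to 0.0656, and those of differently numbered libraries from −0.0653 to 0.0728. Whether same-numbered libraries were prepared as pairs was not tested. Genes called ranged from 6818 to 9163 after siRNA and from 4068 to 6501 under ML60218 over all settings. Read depth limits the genes with few reads, such as SLC30A2 with 14 to 44 per library.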

Other observations

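Genes of copper and iron handling, metals that share some carriers with zinc, were read from a list of 15, all tested. After POLR3A siRNA, 7 rose, 2 fell and 6 did not pass the edgeR quasi-likelihood test, beside 27.4% of all genes tested higher and 29.2% lower. SLC31A1, the high-affinity copper importer, rose by 0.79 (SE 0.035, edgeR adjusted p = 2.64e-10), and ATP7A, which exports copper, fell by 1.22 (SE 0.069, edgeR adjusted p = 8.55e-08). SLC11A2, the importer of ferrous iron, fell by 0.57 (SE 0.032, edgeR adjusted p = 2.69e-09), and FTL, the light chain of ferritin, rose by 0.29 (SE 0.025, edgeR adjusted p = 2.7e-07).

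Under ML60218, 0 of the 15 rose, 7 fell and 8 did not pass, beside 18.1% of all genes tested higher and 20.9% lower. TFRC, the transferrin receptor that brings in iron, fell by 0.78 (SE 0.088, edgeR adjusted p = 0.00132), from 439 ± 4.70 to 255 ± 33.0 CPM (SD, n = 3). COX17, a copper chaperone of mitochondria, fell by 0.49 (SE 0.076, edgeR adjusted p = 0.00127), and ATOX1, a cytosolic copper chaperone, fell by 0.25 (SE 0.059, edgeR adjusted p = 0.00741), a call lost in summed TPM (−0.12, limma adjusted p = 0.137). SLC31A2 fell by 1.30 (SE 0.29, edgeR adjusted p = 0.00627) from a level of 1.68 ± 0.676 CPM. The list median was −0.12 under ML60218 and 0.06 after siRNA, beside 0.01 over all genes tested in each comparison.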
